A study of Mus musculus with 12 samples.

Results

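Cardiac muscle and cardiac regulator genes were followed in mouse haemogenic endothelium after induction of Sox7. The group was taken by gene name from the deposited count and RPKM tables and holds Myh6, Myh7, Tnnt2, Tnni1, Gata4, Gata6, Hand1, Hand2, Nkx2-5 and Isl1, which are 10 of the 41128 genes listed. All 10 were among the 15347 genes that passed the filter on low counts, and all 10 also passed it on the untreated libraries alone.

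Cardiac muscle contracts through sarcomeres, in which myosin heavy chains pull on thin filaments that are switched on and off by calcium through the troponin complex. A core set of transcription factors (GATA, HAND, NK2 homeobox and LIM homeobox proteins) acts in cardiac progenitors and switches on those muscle genes. Heart, endothelium and blood all arise from mesoderm that passes through an FLK1-positive stage, and several of the cardiac transcription factors are also active in other mesoderm and in endoderm.

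RNA was sequenced from cultures that were kept with doxycycline (Dox, 1 µg/ml) for 6, 12 or 24 h, or for the same time without it. Each of these 6 groups has 2 libraries. All 12 libraries come from iSox7 embryonic stem cells, a derivative of the Ainv18 line in which Dox switches on Sox7, the gene of an endothelial SOX transcription factor. Before treatment, FLK1-positive cells were taken from embryoid bodies at day 3.5 and grown for 48 h in blast medium with VEGF, IL6 and D4T conditioned medium. Every library carries the inducible gene and the labels name 1 parental line, so an effect of Dox itself and one of induced Sox7 cannot be told apart. The labels do not say whether both libraries of a group came from separate cultures. The p-values therefore rest on the spread between these libraries, which may be technical. The counts do not separate transcripts of the inserted Sox7 from those of the gene's own locus.

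Sox7 stood at 326 and 314 CPM (read counts scaled by library size) in the Dox libraries of 6 h, against 77.9 and 81.7 CPM in the untreated ones, at 379 and 376 against 55.6 and 68.8 CPM at 12 h, and at 337 and 331 against 52.5 and 52.1 CPM at 24 h. Every Dox library was far above every untreated one, as their labels say. Total counts were 13485804 to 15429846 in 6 libraries and 27516106 to 35250074 in the other 6, with 1 shallow and 1 deep library in each group. All 12 listed markers of haemogenic endothelium were measured, with mean levels of 2.16 to 150 RPKM, a level per transcript length. Among the markers of other cells used below, the highest mean was 2540 RPKM for smooth muscle and 333 RPKM for blood cells. It was 150 RPKM for endocardium, 85 for epicardium, 56.7 for endoderm (Sox7 included) and 1.75 for skeletal muscle. The 150 RPKM for endocardium is that of Cdh5, which also gives the highest mean of the haemogenic endothelium list. Unless stated otherwise, fold changes are log2, Dox over no Dox, ± SE, with adjusted p-values from edgeR's quasi-likelihood test after Benjamini-Hochberg adjustment over all 15347 genes, and a gene is called at an adjusted p under 0.05.

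Myh6 and Myh7, which carry the largest Dox differences among the 10 genes at 24 h, lie 3760 bp apart on chromosome 14, both on the minus strand. Their RefSeq promoters (GRCm38.p6) are shown because both genes were higher with Dox at 24 h; for Myh7 it is the first listed promoter. Each line gives the 250 bases before the transcription start, 5′ to 3′ on the gene's strand, with capitals where the SOX core ACAAT or the GATA motif AGATAA is found on either strand. The Myh7 bases are chr14:54994627-54994876 and the Myh6 bases chr14:54966608-54966857.
Myh7 promoter: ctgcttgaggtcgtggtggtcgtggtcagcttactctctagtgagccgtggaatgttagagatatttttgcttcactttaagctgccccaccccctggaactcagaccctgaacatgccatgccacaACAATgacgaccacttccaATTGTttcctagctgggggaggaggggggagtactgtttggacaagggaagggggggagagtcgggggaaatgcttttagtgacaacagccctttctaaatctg
Myh6 promoter: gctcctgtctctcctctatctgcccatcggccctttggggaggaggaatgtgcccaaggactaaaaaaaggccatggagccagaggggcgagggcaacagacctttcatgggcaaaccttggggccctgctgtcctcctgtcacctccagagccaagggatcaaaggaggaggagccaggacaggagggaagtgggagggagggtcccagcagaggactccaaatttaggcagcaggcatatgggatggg
The Myh7 promoter holds 2 matches to ACAAT, the first base of which lies 123 bases before the start on the plus strand of the gene and 104 bases before it on the opposite strand. This second match overlaps an E-box core, CANNTG, that begins 106 bases before the start. From the start of the second listed Myh7 promoter the same 2 matches to ACAAT lie 200 and 181 bases upstream. No match to ACAAT or AGATAA was found in the Myh6 window. Over windows of 300 bases, 250 before to 50 after the start, ACAAT is found in 31.0% of 32851 RefSeq promoters, and 7.98% hold at least 2 matches. AGATAA is found in 11.2% and CANNTG in 72.3% of them. These matches are letters in a window and no binding was measured.

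RefSeq promoter rows were matched for 7 of the 10 genes. Among them, Tnnt2, the gene of cardiac troponin T, has 1 match to each motif in its first listed promoter, with ACAAT 64 bases and AGATAA 166 bases before the start, both on the opposite strand. It is shown for comparison with the myosin genes, with the same capitals, at chr1:135836084-135836333 on the plus strand.
Tnnt2 promoter: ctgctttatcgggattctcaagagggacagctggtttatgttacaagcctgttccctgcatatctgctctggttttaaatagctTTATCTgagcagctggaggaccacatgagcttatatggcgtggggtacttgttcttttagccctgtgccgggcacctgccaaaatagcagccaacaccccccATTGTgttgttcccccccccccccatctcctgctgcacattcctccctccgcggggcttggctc
The windows of Hand2 and Isl1 hold 1 match to AGATAA each, 172 bases before the start in Hand2 and just past it in Isl1, and none to ACAAT. The Tnni1 and Nkx2-5 windows hold neither motif, and the second listed Tnnt2 promoter holds neither.

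Myh6 and Myh7 may share reads. Of the 6039 windows of 75 bases, the read length, in the longest GENCODE M21 coding transcript of Myh6, 939 (15.5%) are also found in Myh7, and 939 of 6156 (15.3%) in Myh7 are also found in Myh6. None of the windows of the other 8 genes is found in a transcript of another gene. The longest run that both transcripts share letter for letter has 245 bases and lies in the coding sequence, over 2 exons of each gene. In Myh6 these are bases 54948612 to 54948725 and 54948327 to 54948457 of chromosome 14 (GRCm38), and in Myh7 bases 54975234 to 54975347 and 54974947 to 54975077. It is shown because a read from it cannot be assigned to either gene by sequence.
Myh6 and Myh7 shared run: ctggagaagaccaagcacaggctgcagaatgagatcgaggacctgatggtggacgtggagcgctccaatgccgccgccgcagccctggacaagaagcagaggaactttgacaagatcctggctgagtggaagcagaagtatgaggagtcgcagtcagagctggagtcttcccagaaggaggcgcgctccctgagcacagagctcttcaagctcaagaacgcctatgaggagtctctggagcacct
How the authors' counting treated such reads is not given in the sources used here. Myh6 therefore has its own values and a value from the summed counts of both genes below.

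Per transcript length the HAND and GATA genes stood far above the muscle genes, Nkx2-5 and Isl1. Mean RPKM over all 12 libraries was 187 for Hand1, 35.5 for Hand2, 32.9 for Gata4, 18.8 for Gata6 and 3.84 for Nkx2-5. It was 2.61 for Tnni1, 0.636 for Tnnt2, 0.398 for Myh7, 0.220 for Isl1 and 0.178 for Myh6. Over the 12 libraries the ranges of Hand2 and Gata4 overlapped, as did those of Nkx2-5 and Tnni1 and of each neighbouring pair from Tnnt2 down to Myh6, while the other neighbours in the order were apart.

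The order of RPKM levels differed between Dox and untreated libraries in a few places. At 24 h, Gata4 stood above Hand2 in the Dox libraries, with 37.8 and 38.0 RPKM for Gata4 and 33.2 and 34.95 RPKM for Hand2. In the untreated libraries of that hour Gata4 stood below Hand2, with 28.4 and 29.8 RPKM for Gata4 and 41.0 and 38.5 RPKM for Hand2. Myh7 reached 0.910 and 0.911 RPKM in the Dox libraries of 24 h and was then above Tnnt2, which had 0.908 and 0.857 RPKM there. In the untreated libraries of 24 h, Myh7 had 0.268 and 0.211 RPKM, below the 0.611 and 0.751 RPKM of Tnnt2.

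**Figure D1:**
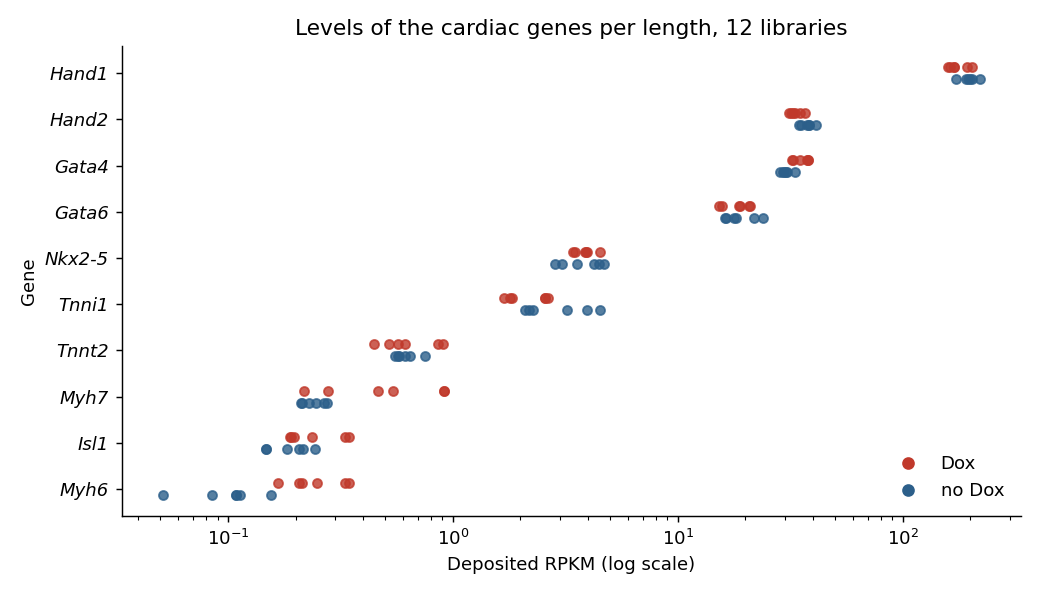
Deposited RPKM (x axis, log scale) of each of the 10 genes (y axis, by mean level) in every library, with a point for each of the 6 Dox libraries above a point for each of the 6 untreated libraries. Hand1 lies between 160 and 220 RPKM in all 12 libraries, and Myh6, Myh7 and Isl1 lie below 1 RPKM in all of them.

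After 6 h of Dox none of the 10 genes was called, against 1.54% of all tested genes, and 1 (Hand1) had an unadjusted p under 0.05. The 1.54% were made up of 0.821% higher and 0.717% lower. After 12 h, Myh7 and Gata4 were higher and 8 genes were not called, against 6.76% of all tested genes called, 3.26% higher and 3.51% lower. After 24 h, Myh6, Myh7 and Gata4 were higher, Tnni1, Hand1 and Hand2 were lower, and Tnnt2, Gata6, Nkx2-5 and Isl1 were not called. At that hour 11.0% of all tested genes were called, 4.50% higher and 6.52% lower. The 10 genes were chosen with earlier results of these data known, so these counts are a description. In bulk RNA, less RNA per cell cannot be told apart from fewer cells that express a gene, nor more RNA from more such cells.

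The median log2 fold change of the 10 genes was -0.065 at 6 h, 0.0133 at 12 h and 0.20 at 24 h. Over all tested genes the medians were 0.00522, -0.00957 and -0.00863. Dox and untreated libraries did not overlap for 5 of the 10 genes at 6 h, 7 at 12 h and 9 at 24 h, against 39.4%, 48.9% and 49.6% of all tested genes.

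**Figure D2:**
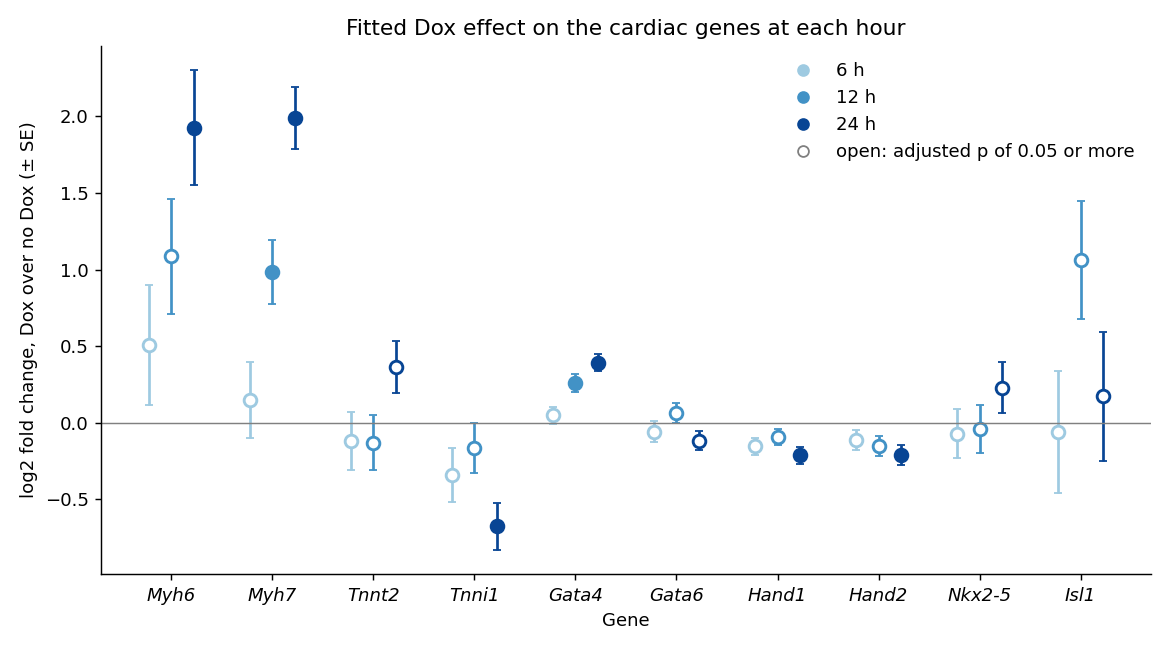
Fitted log2 fold change, Dox over no Dox (y axis), of each of the 10 genes (x axis) at 6, 12 and 24 h, with bars of ± 1 SE and open points where the adjusted p was 0.05 or more. Myh6 and Myh7 stand at 1.93 and 1.99 at 24 h, and the filled points below 0 are Tnni1, Hand1 and Hand2 at 24 h.

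Myh7 (ENSMUSG00000053093, chromosome 14, 54970688 to 54994634, minus strand) encodes the beta myosin heavy chain, the slow motor of cardiac and slow skeletal muscle. It had 2.63 and 2.06 CPM in the Dox libraries of 6 h, against 2.00 and 2.15 CPM in the untreated libraries. At 12 h it had 5.06 and 4.30 CPM with Dox, against 2.56 and 2.30 CPM without. At 24 h it had 8.57 and 8.61 CPM with Dox, against 2.50 and 1.97 CPM without, which correspond to 261 and 120 counts against 35 and 65 counts. The groups overlapped at 6 h and were apart at 12 and 24 h, and the untreated libraries stayed between 1.97 and 2.56 CPM throughout.

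The Dox difference of Myh7 was 0.15 ± 0.25 at 6 h (adjusted p = 0.926), 0.99 ± 0.21 at 12 h (adjusted p = 0.00297) and 1.99 ± 0.20 at 24 h (adjusted p = 1.71e-08). Between the deep libraries alone the log2 ratio at 24 h was 2.12, and between the shallow libraries alone 1.78. The call at 12 h was lost without Dox replicate 1 of that hour (0.85, adjusted p = 0.108), without untreated replicate 2 (0.89, adjusted p = 0.0867) and with limma-trend on RPKM (0.74, adjusted p = 0.0782), over a range of 0.000336 to 0.108 in 14 alternative fits. The call at 24 h was kept in all 14 alternative fits, 1 of which used the summed counts of Myh6 and Myh7.

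Myh6 (ENSMUSG00000040752, chromosome 14, 54941921 to 54966927, minus strand) encodes the alpha myosin heavy chain, the fast cardiac motor of the adult mouse heart. It had 1.46 and 1.18 CPM in the Dox libraries of 6 h, against 1.09 and 0.593 CPM in the untreated libraries. At 12 h it had 1.73 and 1.48 CPM with Dox, against 0.783 and 0.757 CPM without. At 24 h it had 2.33 and 2.44 CPM with Dox, against 0.357 and 0.759 CPM without, from 71 and 34 counts against 5 and 25 counts. Dox libraries were above untreated ones at each hour, and the counts behind these values are few, since 3 counts equal 0.0838 to 0.222 CPM, depending on the library.

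The Dox difference of Myh6 was 0.51 ± 0.39 at 6 h (adjusted p = 0.748), 1.09 ± 0.38 at 12 h (adjusted p = 0.0812) and 1.93 ± 0.38 at 24 h (adjusted p = 0.000477). Among 13 alternative fits the adjusted p at 12 h ran from 0.0495, without a filter on low counts, to 0.435. At 24 h the call was kept in all 13, with adjusted p-values between 3.68e-06 and 0.0107, and the difference itself was 2.72 without untreated replicate 2, which left only the library with 5 counts on the untreated side, and 1.64 without untreated replicate 1.

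Myh6 made up 21.4% (95% Clopper-Pearson interval 17.1 to 26.2) and 22.1% (15.8 to 29.5) of the summed Myh6 and Myh7 counts in the Dox libraries of 24 h. In the untreated libraries of that hour its share was 12.5% (4.19 to 26.8) and 27.8% (18.9 to 38.2). These intervals cover counting error only and overlap, so a difference in the share was not detectable at this depth. With the counts of both genes summed, the Dox difference was 0.27 at 6 h (adjusted p = 0.743), 1.01 at 12 h (adjusted p = 0.000491) and 1.98 at 24 h (adjusted p = 1.36e-09). 

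**Figure D3:**
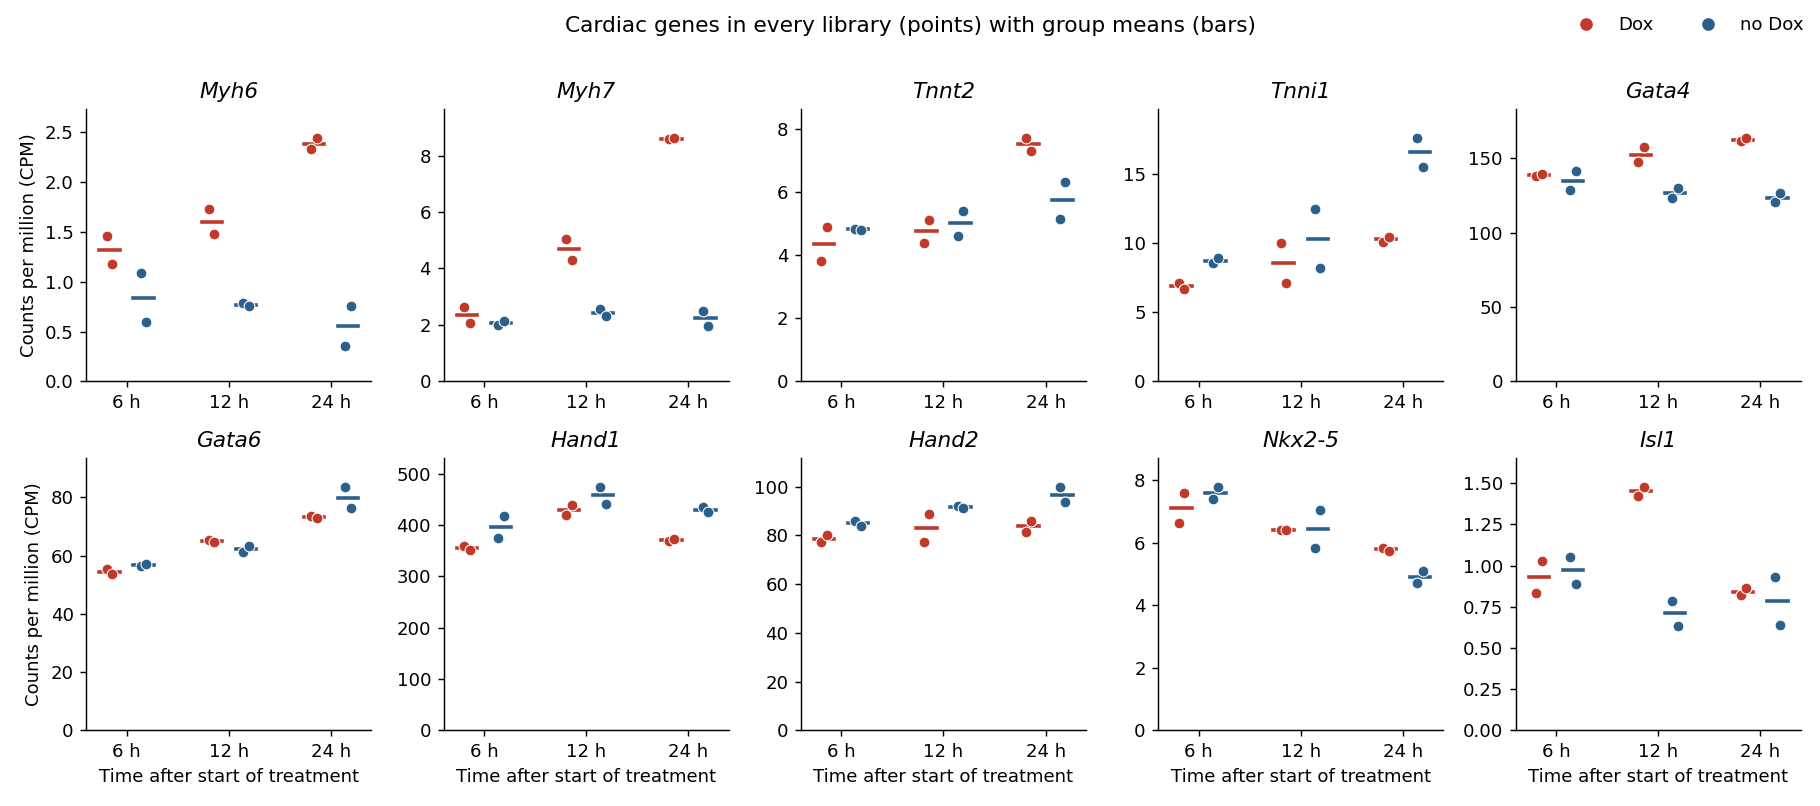
CPM (y axis, from 0) of each of the 10 genes by hour (x axis), with a point for each library and a bar at the mean of each group of 2 libraries, Dox left of no Dox. Myh7 with Dox stands near 2.34, 4.68 and 8.59 CPM at 6, 12 and 24 h, while Tnni1 with Dox stands at 10.3 CPM at 24 h, against 16.6 CPM without Dox.

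The troponin genes took other courses than the myosin genes. Tnni1 (ENSMUSG00000026418, chromosome 1, 135779434 to 135810989, plus strand) encodes slow skeletal troponin I, the inhibitory troponin subunit of embryonic heart and slow muscle. It had 10.1 and 10.5 CPM in the Dox libraries of 24 h, against 17.6 and 15.5 CPM in the untreated ones. Every Dox library of 24 h was below every untreated one, and the same held at 6 h, with 7.14 and 6.69 CPM with Dox against 8.57 and 8.89 CPM without. At 12 h the groups overlapped, with 10.0 and 7.12 CPM with Dox against 12.5 and 8.21 CPM without.

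Tnni1 was lower with Dox at 24 h by a log2 fold change of -0.68 ± 0.16 (adjusted p = 0.00272). It was not called at 6 h (-0.34 ± 0.18, adjusted p = 0.531) or at 12 h (-0.16 ± 0.16, adjusted p = 0.64), where the deep libraries gave a log2 ratio of 0.29 and the shallow ones -0.81. The call at 24 h was lost with limma-trend on RPKM (adjusted p = 0.0634, range over 14 alternative fits 1.19e-05 to 0.0634).

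Tnnt2 (ENSMUSG00000026414, chromosome 1, 135836354 to 135852260, plus strand) encodes cardiac troponin T, which anchors the troponin complex to tropomyosin and is a common marker of cardiomyocytes. It lies on the same strand as Tnni1, with 1 gene of the tables, Lad1, between them. It had 7.72 and 7.32 CPM in the Dox libraries of 24 h, against 5.15 and 6.34 CPM in the untreated ones, so the groups were apart. The difference of 0.36 ± 0.17 was not called (adjusted p = 0.205, and 0.142 to 0.625 over 14 alternative fits). At 6 h the libraries had 3.81 and 4.89 CPM with Dox against 4.85 and 4.82 CPM without, and at 12 h 4.39 and 5.13 CPM against 4.63 and 5.42 CPM, and the groups overlapped at both hours. The differences were -0.12 ± 0.19 at 6 h (adjusted p = 0.92) and -0.13 ± 0.18 at 12 h (adjusted p = 0.759).

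Of the GATA factors, zinc finger proteins that act in cardiac and endodermal lineages, Gata4 was higher with Dox and Gata6 was not called. Gata4 (ENSMUSG00000021944, chromosome 14, 63198922 to 63271692, minus strand) had 138 and 140 CPM in the Dox libraries of 6 h, against 129 and 141 CPM in the untreated ones. At 12 h it had 148 and 158 CPM with Dox, against 123 and 130 CPM without. At 24 h it had 162 and 164 CPM with Dox, against 121 and 127 CPM without. The groups overlapped at 6 h only, and every Dox library of 12 and 24 h was above every untreated library of those hours.

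The Dox difference of Gata4 was 0.05 ± 0.06 at 6 h (adjusted p = 0.886), 0.26 ± 0.06 at 12 h (adjusted p = 0.00388) and 0.39 ± 0.06 at 24 h (adjusted p = 8.34e-06), a 1.31-fold higher level at the last hour. The call at 12 h was lost without Dox replicate 2 of that hour (0.22, adjusted p = 0.0551, range over 14 alternative fits 0.00136 to 0.0551), and the call at 24 h was kept in all 14. Gata4 lies 671982 bp from Sox7 on chromosome 14. Of the 10 genes of the tables between them, 4 were tested (Fam167a, Mtmr9, Xkr6 and Pinx1), and none of these was called at 24 h.

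Gata6 (ENSMUSG00000005836, chromosome 18, 11052510 to 11085635, plus strand) had 73.5 and 73.1 CPM in the Dox libraries of 24 h, against 83.5 and 76.2 CPM in the untreated ones. At 6 h it had 55.3 and 53.7 CPM with Dox, against 56.4 and 57.0 CPM without, and at 12 h 65.5 and 64.7 CPM against 61.2 and 63.2 CPM. The groups were apart at each hour, with the Dox libraries lower at 6 and 24 h and higher at 12 h. The difference at 24 h was -0.12 ± 0.06 (adjusted p = 0.311), and it was -0.06 ± 0.07 at 6 h (adjusted p = 0.875) and 0.06 ± 0.06 at 12 h (adjusted p = 0.64). The antisense gene 1010001N08Rik overlaps Gata6 and had at most 36 counts in a library, against 769 to 2512 for Gata6. The library kit marks strand, but the strand setting of the counting is not given in the sources used here.

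Of the HAND factors, basic helix-loop-helix proteins that bind E-boxes, Hand1 had the highest CPM of the 10 genes, and both were slightly lower with Dox at 24 h. Hand1 (ENSMUSG00000037335, chromosome 11, 57828705 to 57832818, minus strand) acts in the outer curvature of the heart and in extraembryonic mesoderm. It had 369 and 373 CPM in the Dox libraries of 24 h, against 435 and 425 CPM in the untreated ones. At 6 h it had 359 and 351 CPM with Dox, against 375 and 417 CPM without, and at 12 h 419 and 438 CPM against 473 and 441 CPM. Each Dox library was below each untreated library at all 3 hours, by a small margin at 12 h.

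Hand1 was lower at 24 h by -0.21 ± 0.05 (adjusted p = 0.00598), and it was not called at 6 h (-0.15 ± 0.05, adjusted p = 0.196) or 12 h (-0.09 ± 0.05, adjusted p = 0.337). The call at 24 h was lost without Dox replicate 1 (-0.20, adjusted p = 0.0686), Dox replicate 2 (-0.21, adjusted p = 0.0505) or untreated replicate 1 (-0.20, adjusted p = 0.0749), over a range of 0.000453 to 0.0749 in 14 alternative fits.

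Hand2 (ENSMUSG00000038193, chromosome 8, 57320983 to 57324517, plus strand) acts in the right ventricle and second heart field. It had 81.4 and 86.1 CPM in the Dox libraries of 24 h, against 99.7 and 93.7 CPM in the untreated ones. At 6 h it had 77.3 and 80.0 CPM with Dox, against 86.0 and 83.9 CPM without, and at 12 h 77.3 and 88.7 CPM against 92.0 and 91.4 CPM. The Dox libraries were below the untreated ones at each hour.

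Hand2 was lower at 24 h by -0.21 ± 0.07 (adjusted p = 0.0352), and was not called at 6 h (-0.11 ± 0.07, adjusted p = 0.631) or 12 h (-0.15 ± 0.06, adjusted p = 0.168). Of 14 alternative fits, 6 lost the call at 24 h, and the adjusted p ran between 0.0239 and 0.281. They were DESeq2 (adjusted p = 0.0708), limma-trend on RPKM (adjusted p = 0.0673) and all 4 fits in which a library of that hour was omitted. Leaving out Dox replicate 1 gave -0.15 (adjusted p = 0.273), Dox replicate 2 -0.24 (adjusted p = 0.0676), untreated replicate 1 -0.17 (adjusted p = 0.281) and untreated replicate 2 -0.25 (adjusted p = 0.0728).

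The homeobox factors were not called in any Dox comparison. Nkx2-5 (ENSMUSG00000015579, chromosome 17, 26838664 to 26841565, minus strand), an early regulator of the cardiac lineage, had 5.85 and 5.74 CPM in the Dox libraries of 24 h, against 4.72 and 5.10 CPM in the untreated ones. The groups were apart at that hour, with a difference of 0.23 ± 0.17 (adjusted p = 0.492). They overlapped at 6 h, with 6.65 and 7.60 CPM with Dox against 7.41 and 7.78 CPM without, and at 12 h, with 6.40 and 6.42 CPM against 5.84 and 7.06 CPM. The differences were -0.07 ± 0.16 at 6 h (adjusted p = 0.953) and -0.04 ± 0.16 at 12 h (adjusted p = 0.926).

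Isl1 (ENSMUSG00000042258, chromosome 13, 116298281 to 116309689, minus strand) encodes a LIM homeobox factor of second heart field progenitors. It had 1.43 and 1.48 CPM in the Dox libraries of 12 h, against 0.783 and 0.636 CPM in the untreated ones, from 51 and 23 counts against 11 and 21 counts. The Dox libraries of 12 h were the highest of all 12, but the difference of 1.07 ± 0.39 was not called (adjusted p = 0.0984, and 0.0653 to 0.462 over 13 alternative fits). At 24 h the groups overlapped, with 0.821 and 0.861 CPM with Dox against 0.929 and 0.637 CPM without, and they overlapped at 6 h as well, with 0.832 and 1.03 CPM against 1.05 and 0.889 CPM. The differences were -0.06 ± 0.40 at 6 h (adjusted p = 0.99) and 0.17 ± 0.42 at 24 h (adjusted p = 0.882).

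Between 6 and 24 h, 6 of the 10 genes rose in the Dox cultures, where 39.3% of all tested genes were called, 19.4% higher and 19.9% lower. None of the 10 was called as lower. On the log2 scale Myh7 was higher by 1.91 ± 0.21 (adjusted p = 1.56e-08), Tnnt2 by 0.76 ± 0.18 (adjusted p = 0.00101), Tnni1 by 0.58 ± 0.17 (adjusted p = 0.0082), Gata6 by 0.43 ± 0.07 (adjusted p = 5.44e-06), Gata4 by 0.23 ± 0.06 (adjusted p = 0.00212) and Myh6 by 0.88 ± 0.34 (adjusted p = 0.0408). The call of Myh6 was lost with DESeq2 (adjusted p = 0.124), with limma-trend (0.0732) and without any 1 of the 4 libraries (0.062 to 0.283), within a range of 0.027 to 0.283 over 13 alternative fits. That of Tnni1 was lost without Dox replicate 2 of 6 h (0.53, adjusted p = 0.0956, range over 14 alternative fits 0.000898 to 0.0956).

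In the untreated cultures 4 of the 10 genes changed over the same hours, where 40.9% of all tested genes were called, 21.3% higher and 19.6% lower. Tnni1 rose by 0.91 ± 0.16 (adjusted p = 2.83e-05), Gata6 by 0.49 ± 0.07 (adjusted p = 5.5e-07) and Hand2 by 0.18 ± 0.07 (adjusted p = 0.0263), and Nkx2-5 changed by -0.61 ± 0.16 (adjusted p = 0.00327). The call of Hand2 was lost without untreated replicate 1 of 6 h (0.19, adjusted p = 0.0983), replicate 2 of 6 h (0.15, adjusted p = 0.151) or replicate 1 of 24 h (0.13, adjusted p = 0.215), within a range of 0.0178 to 0.215 over 14 alternative fits. In the untreated cultures Myh7 had a difference of 0.07 ± 0.25 (adjusted p = 0.85) and Myh6 one of -0.54 ± 0.43 (adjusted p = 0.342). Tnni1 and Gata6 were thus called as higher at 24 h than at 6 h with Dox and without it.

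The Dox effect at 24 h differed from that at 6 h for 2 of the 10 genes, against 2.08% of all tested genes, 0.626% with a positive and 1.45% with a negative difference of the effects. For Myh7 the difference of the effects was 1.84 ± 0.33 (adjusted p = 0.000951) and for Gata4 0.34 ± 0.08 (adjusted p = 0.0176). The Gata4 call was lost with limma-trend (0.36, adjusted p = 0.0845) and without untreated replicate 2 of 6 h (0.30, adjusted p = 0.107), Dox replicate 2 of 24 h (0.35, adjusted p = 0.0506) or untreated replicate 1 of 24 h (0.32, adjusted p = 0.12), within a range of 0.00447 to 0.12 over 18 alternative fits. For Myh6 the difference was 1.42 ± 0.55 (adjusted p = 0.278). None of the 10 genes was called between 6 and 12 h (0.417% of all tested genes) or between 12 and 24 h (1.21%), and 2 genes had an unadjusted p under 0.05 in each of these comparisons, with 0 called in each of the 18 alternative fits, DESeq2 and limma-trend among them.

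The other genes of the cardiac sarcomere and of contraction were taken from a list of 24, all of them in the tables, of which 18 were tested. None was called at 6 h, 1 was higher and 1 lower at 12 h, and 1 was lower at 24 h, against 1.54%, 6.76% and 11.0% of all tested genes called. At 6 h, 0 were called in each of the 14 alternative fits too. The list's median log2 fold change was 0.058 at 6 h, -0.133 at 12 h and -0.0991 at 24 h. At 12 h the count of called genes was 4 without Dox replicate 2 of that hour, and 1 without Dox replicate 1, without untreated replicate 2 or with limma-trend. At 24 h it was 0 without Dox replicate 1, without untreated replicate 1, with DESeq2 or with limma-trend.

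Myh7b, another sarcomeric myosin heavy chain gene, had 2.93 and 2.37 CPM in the Dox libraries of 12 h, against 0.427 and 0.273 CPM in the untreated ones. The difference was 3.04 ± 0.41 (adjusted p = 8.11e-06), and it was 1.13 ± 0.42 at 6 h (adjusted p = 0.247) and 0.63 ± 0.37 at 24 h (adjusted p = 0.358). At 24 h the Dox libraries had 1.48 and 1.22 CPM and the untreated ones 0.572 and 1.06 CPM. With limma-trend on RPKM the difference at 12 h was 1.66 (adjusted p = 0.00589), and the call was kept in all 14 alternative fits, over a range of 6.96e-12 to 0.00589.

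Actc1, the gene of cardiac actin, had 29.1 and 35.7 CPM in the Dox libraries of 12 h, against 38.3 and 41.4 CPM in the untreated ones, a difference of -0.33 ± 0.09 (adjusted p = 0.0174). That call was lost without Dox replicate 1 (-0.16, adjusted p = 0.535), without untreated replicate 2 (-0.26, adjusted p = 0.219) and with limma-trend (-0.30, adjusted p = 0.11), within a range of 0.00245 to 0.535 over 14 alternative fits. Slc8a1, the gene of the sodium-calcium exchanger of the cardiomyocyte membrane, had 2.66 and 3.66 CPM in the Dox libraries of 24 h, against 6.58 and 5.40 CPM in the untreated ones, a difference of -0.95 ± 0.25 (adjusted p = 0.00881). Its call was lost without Dox replicate 1 (-0.68, adjusted p = 0.188), without untreated replicate 1 (-0.82, adjusted p = 0.101), with DESeq2 (-0.93, adjusted p = 0.0608) and with limma-trend (-0.88, adjusted p = 0.0891), within a range of 0.000594 to 0.188 over 14 alternative fits.

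Several defining genes of working cardiomyocytes were at or near 0. Myl2, the ventricular myosin light chain gene, had 0 counts in all 12 libraries, where 3 counts equal at most 0.222 CPM. The highest count of any library was 3 for Nppa, the atrial natriuretic peptide gene, 4 for Myl3 and 11 for Tnni3, the adult cardiac troponin I gene. Pln stayed under 10, and so did Myl1, which is in the list but is not a defining gene of these cells. Of the 24 genes, 7 had a mean of at least 1 RPKM, and the highest mean was 292 RPKM, that of Tpm1. The others were Atp2a2 (81.4 RPKM), Actc1 (23.6), Tnnc1 (13.2), Nppb (4.05), Myom1 (1.42) and Ldb3 (1.02). Except for Actc1, these were named after their values were seen. The summed level of the list was 2514 to 2593 CPM in the Dox libraries of 24 h, against 2445 to 2461 CPM in the untreated ones. Most of that sum came from Tpm1, a tropomyosin gene, and Atp2a2, a calcium pump gene, both expressed in many cell types. Without these, which were left out after their values were seen, the other 22 genes summed to 74.5 to 80.1 CPM in the Dox libraries of 24 h, against 87.5 to 88.4 CPM in the untreated ones.

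The other cardiac regulators were taken from a list of 23, of which 18 were tested. At 6 h, 1 was higher and 1 lower, at 12 h 1 was higher and 1 lower, and at 24 h 3 were higher and 2 lower, against 1.54%, 6.76% and 11.0% of all tested genes called at these hours. With limma-trend these counts were 1, 1 and 2 genes in all, and without Dox replicate 1 of 12 h the count at that hour was 1. The list's median log2 fold change was -0.0188, -0.0592 and -0.00951 at 6, 12 and 24 h. Tbx3, a T-box repressor of the conduction system, was higher at each hour. It had 56.9 and 61.4 CPM in the Dox libraries of 6 h, against 42.8 and 42.2 CPM in the untreated ones, and 36.9 and 39.9 CPM against 26.5 and 26.6 CPM at 24 h. Its differences were 0.48 ± 0.08 (adjusted p = 0.000292), 0.40 ± 0.08 (adjusted p = 0.00128) and 0.53 ± 0.08 (adjusted p = 2.05e-05) at 6, 12 and 24 h, and each of these 3 calls was kept in all 14 alternative fits. At 12 h the libraries had 42.9 and 45.4 CPM with Dox, against 31.6 and 34.7 CPM without.

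Mef2c, a MADS-box factor of cardiac and endothelial progenitors, had 77.8 and 64.4 CPM in the Dox libraries of 24 h, against 96.2 and 106 CPM in the untreated ones, a difference of -0.50 ± 0.08 (adjusted p = 1.7e-05) that was called in all 14 alternative fits. Zfpm1, a cofactor of GATA proteins, had 116 and 114 CPM in the Dox libraries of 6 h, against 147 and 168 CPM in the untreated ones, a difference of -0.45 ± 0.07 (adjusted p = 0.000245, and up to 0.0568 with limma-trend among 14 alternative fits, from 1.5e-10). Myocd, the gene of myocardin, a coactivator of smooth and cardiac muscle genes, had 9.98 and 10.6 CPM in the Dox libraries of 24 h, against 7.58 and 6.49 CPM in the untreated ones, a difference of 0.56 ± 0.14 (adjusted p = 0.00677). Without untreated replicate 2 it was 0.44 (adjusted p = 0.178) and with limma-trend 0.49 (adjusted p = 0.0531), within a range of 0.00627 to 0.178 over 14 alternative fits.

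The other called regulators were named after their values were seen. Nfatc1 was higher at 24 h by 0.23 (adjusted p = 0.00907), Fgf10 was lower at 24 h by -0.21 (adjusted p = 0.0389), and Bmp4 was lower at 12 h by -0.23 (adjusted p = 0.0119). Each of these 3 calls was lost in 3 to 5 of 14 alternative fits, with adjusted p-values up to 0.19 for Nfatc1, 0.454 for Fgf10 and 0.43 for Bmp4. Without untreated replicate 2 of 24 h the list held 2 called genes at that hour in place of 5. Of the 23 regulators, 15 had a mean of at least 1 RPKM, and the highest mean was 78.5 RPKM, that of Bmp4. Tbx20, named after its values were seen, had a mean of 66.5 RPKM and was not called at 6, 12 or 24 h. Mesp1, Irx4, Bmp10 and Mef2b had fewer than 10 counts in every library, and Tbx5 at most 13.

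**Figure D4:**
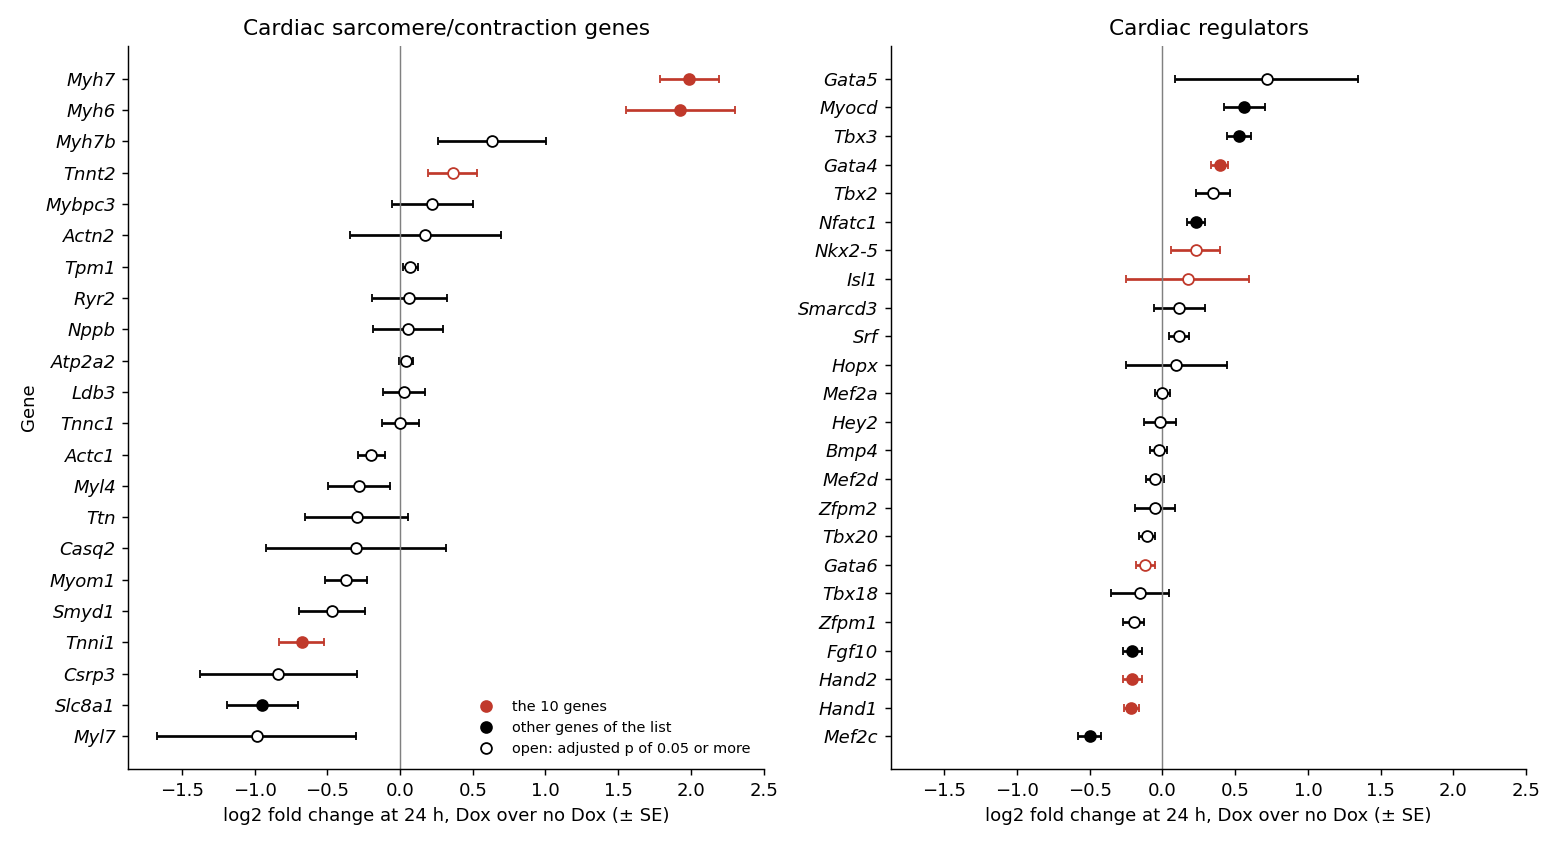
Fitted log2 fold change at 24 h, Dox over no Dox (x axis, bars ± 1 SE), of the tested cardiac sarcomere and contraction genes (left) and cardiac regulators (right), with the 10 genes in red, other genes of the lists in black and open points at an adjusted p of 0.05 or more. Myh7 and Myh6 stand near 2, and the next gene on the left, Myh7b, stands at 0.63 and was not called at this hour.

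Markers of other cells moved at 24 h as well, an hour at which 11.0% of all tested genes were called, 4.50% higher and 6.52% lower. Of 10 blood cell markers 9 were lower and 1 was higher with Dox, and their summed level was 516 to 590 CPM in the Dox libraries, against 886 to 929 CPM in the untreated ones. The gene higher with Dox was Hbb-y, an embryonic globin gene (0.26, adjusted p = 0.0189), a call that was lost in 4 of 14 alternative fits (0.16, adjusted p = 0.286, without Dox replicate 1, 0.15, adjusted p = 0.399, without untreated replicate 2, adjusted p = 0.277 with DESeq2 and 0.26 with limma-trend). The lower genes included Hba-a1, an alpha globin gene with a near-identical copy (-2.13), Mpo, the myeloperoxidase gene (-1.60), and Plek, the pleckstrin gene (-1.71). At 6 and at 12 h, 5 of the 10 were lower and Hbb-y was higher, against 1.54% and 6.76% of all tested genes called.

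Of 12 markers of haemogenic endothelium 5 were higher and 4 lower at 24 h, against 11.0% of all tested genes called. Their summed levels were 2311 to 2410 CPM in the Dox libraries, against 2074 to 2146 CPM. Tal1 and Itga2b, both genes of early blood cells, were lower by -0.33 and -0.49, and Gfi1b, a repressor of endothelial genes in emerging blood cells, by -0.65. Gfi1, its paralog, and Gata2, a GATA factor of blood stem cells, both named after their values were seen, were higher by 0.71 (adjusted p = 0.00295) and 0.53 (adjusted p = 0.000127). The call of Gfi1 was lost without Dox replicate 1 (0.63, adjusted p = 0.0581) or untreated replicate 1 (0.58, adjusted p = 0.0536), and that of Gata2 was kept in all 14 alternative fits. Of 10 endocardial markers 4 were higher and 2 lower, with summed levels of 1921 to 2029 CPM against 1825 to 1832 CPM. Cdh5, the gene of vascular endothelial cadherin, was higher by 0.50 (adjusted p = 5.65e-08), and Hapln1, a matrix gene of the endocardium, was lower by -0.62 (adjusted p = 5.4e-08). Tek and Tie1, a pair of endothelial receptor genes, were higher by 0.32 and 0.28. Cdh5 and Tek stand in both lists. The part of these shifts in the cardiac results was not tested.

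Markers of other muscle were also measured. Of 17 skeletal muscle markers 12 had fewer than 10 counts in every library, Myh8 and Myf6 had 0 counts in all, and 4 were tested. The summed level of the 17 was 2.80 to 4.56 CPM in the Dox libraries of 24 h, against 5.52 to 5.93 CPM. Tnnt1, a slow skeletal troponin T gene, was higher at 12 h (2.01 ± 0.56, adjusted p = 0.0269) with 24 and 15 counts in the Dox libraries, against 2 and 7 in the untreated ones. Tnni2, a fast skeletal troponin I gene, was lower at 24 h (-2.22 ± 0.71, adjusted p = 0.0403) with 5 and 2 counts against 6 and 31 counts. Both calls were lost without single libraries, with adjusted p-values up to 0.169 for Tnnt1 and 0.233 for Tnni2 over the alternative fits.

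Of 10 smooth muscle markers, 1 was higher and 2 were lower at 24 h, against 11.0% of all tested genes called. The markers had a summed level of 6236 to 6264 CPM in the Dox libraries, against 5999 to 6122 CPM. Acta2 and Tagln made up most of it and were set apart after their values were seen. The other 8 markers summed to 163 to 178 CPM in the Dox libraries, against 161 to 172 CPM. Smtn, the gene of smoothelin, was higher by 0.33 (adjusted p = 0.00101), and Des, the gene of desmin, and Mylk, a myosin light chain kinase gene, were lower by -0.60 (adjusted p = 0.00157) and -0.71 (adjusted p = 0.00801). Without untreated replicate 2 the call of Smtn was lost (0.27, adjusted p = 0.0637), and that of Mylk without Dox replicate 2 (-0.62, adjusted p = 0.0674) or untreated replicate 1 (-0.60, adjusted p = 0.0883), and with limma-trend (-0.62, adjusted p = 0.0515). At 12 h, Tagln, the transgelin gene, was lower by -0.32 (adjusted p = 0.00929), a call lost without Dox replicate 1 (-0.10, adjusted p = 0.497) or untreated replicate 2 (-0.29, adjusted p = 0.0749), with DESeq2 (adjusted p = 0.19) and with limma-trend (adjusted p = 0.189). Of 15 endoderm markers, among them Sox7 itself, 10 were tested and Sox7 was higher and Dab2 lower at 24 h (-0.36, adjusted p = 1.24e-05). Of 6 epicardial markers 4 were tested and Krt19 was lower (-0.26, adjusted p = 0.00156, but 0.0835 without Dox replicate 2 and 0.0592 without untreated replicate 2). The summed level of the endoderm markers, Sox7 included, was 615 to 619 CPM in the Dox libraries of 24 h, against 387 to 397 CPM. Without Sox7 it was 278 to 288 CPM in the Dox libraries, against 334 to 345 CPM, and that of the epicardial markers was 157 to 170 CPM against 194 to 199 CPM. Most of the endoderm sum without Sox7 came from Dab2, with 208 and 212 CPM in the Dox libraries, against 262.5 and 274.7 CPM. Most of the epicardial sum came from Krt19, with 160.4 and 148.5 CPM in the Dox libraries, against 182.1 and 187.7 CPM. The part of these genes in the cardiac results was not tested either.

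Of the features that overlap the 10 genes, those within Myh6 and Myh7, the microRNA genes Mir208a and Mir208b among them, had 0 counts in all libraries and RP24-459A4.3 at Hand2 had at most 6. Within 100000 bp of Myh6 and Myh7, the only other called gene at 24 h was Zfhx2, with 0.39 ± 0.08 (adjusted p = 0.00146), and it was named after its values were seen. Near Hand1, Galnt10 was lower by -0.26 ± 0.06 (adjusted p = 0.00365), and near Gata4, Ctsb by -0.20 ± 0.05 (adjusted p = 0.00846). Near Tnni1, Nav1 was higher by 0.46 ± 0.14 (adjusted p = 0.0244). These genes were likewise named after their values were seen. At 24 h 11.0% of all tested genes were called, so no local effect is read from these neighbours.

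Over the 12 libraries, the log2 CPM of Gata4 had a Pearson r of 0.84 with that of Myh7 and with that of Myh6, and Myh6 and Myh7 had 0.78. Nkx2-5 ran against Gata6 (r = -0.90) and against Tnni1 (r = -0.85). These are descriptions over libraries that share hours and treatment. Among the tested genes whose mean log2 CPM reached 1, those most like Myh7 were Atp10d (r = 0.975) and Frmpd1 (0.970), and those most like Myh6 were Arntl2 (0.947) and Dennd5b (0.916). For Tnnt2 they were Pdlim3 (0.943) and Cpe (0.933), and for Tnni1 Pygl (0.966) and Abca7 (0.953). For Gata4 they were Slc6a6 (0.954) and Ptrf (0.948), for Gata6 Sytl2 (0.987) and Angptl2 (0.984), for Hand1 Mtcl1 (0.885) and Slc25a1 (0.881), and for Hand2 Rab32 (0.917) and Evi2a (0.915). For Nkx2-5 they were Coa7 (0.976) and Id1 (0.970), and for Isl1, which had the weakest likeness, Rbm26 (0.850) and Marc2 (0.838).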

How the data were processed

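RNA of 12 libraries was prepared from 200 ng by a kit that marks the strand, amplified over 14 PCR cycles and sequenced as single reads of 75 bases, per the labels' protocols. The authors deposited a table of read counts per gene and a table of RPKM values with the same 41128 genes. The build GRCm38 is named in the submitters' processing notes, as are Bowtie2 2.21, SAMtools 0.1.19, bcl2fastq 2.16.0.10, edgeR 3.8.5 and R 3.1.0. No source used here names the counting program, its strand setting or its treatment of reads that match both of 2 genes. Samples were grouped by their labels, and 0 value columns were left out.

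The count table was fitted in edgeR 4.0.16 (R 4.3.3), with filterByExpr (15347 genes kept), TMM scaling and a quasi-likelihood fit of all 6 groups with 6 residual degrees of freedom. Benjamini-Hochberg adjustment ran over all genes in the fit, with a threshold of 0.05, and the SE of a log2 fold change is its size divided by the square root of F. The CPM values use TMM-scaled library sizes. In replicate pairs of a group the counts differed by more than sampling noise (chi-square per degree of freedom 2.63 to 4.61), and the biological coefficient of variation was 4.71%. The fit was tested on simulated data, with 1 draw for each hour under the same settings. The share of false calls was above the adjusted threshold at 24 h and below it at 6 and 12 h. With 1 draw an hour, a difference between hours cannot be told apart from variation between draws. Small changes were missed more often than large ones. The alternatives tried were upper quartile and RLE scaling, a fit with no filter, a filter of 1 CPM in 4 libraries, DESeq2 1.42.0, limma-trend 3.58.1 on log2(RPKM + 0.1), a replicate block, a depth block, a fit of the compared groups alone, summed Myh6 and Myh7 counts and each library left out. The depth block was added after seeing the data. Where a left-out library leaves 1 in its group, that library is assumed to vary like the others.

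The 10 genes and the gene lists were chosen with earlier results of these data known. The genes named are the 10 themselves, Sox7, up to 4 called genes of each list by adjusted p, and for each of the 10 genes the pair most like it by Pearson r over the libraries. Any other gene was named for its place on the chromosome or after its values were seen, also where this is not said in its place. Promoters were read from RefSeq (GRCm38.p6) and transcripts from GENCODE M21, and motifs were searched on both strands with Python 3.11.15.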

Additional observations from a re-analysis of the deposited data

Results flagged for a closer look

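The Dox effect differed between hours for 2 of the 10 genes by a test of the difference itself, in edgeR's quasi-likelihood fit. For Myh7 the log2 effect at 24 h exceeded that at 6 h by 1.84 ± 0.33 (adjusted p = 0.00095), and the call was kept in all 18 alternative fits. For Gata4 it exceeded that at 6 h by 0.344 ± 0.081 (adjusted p = 0.018), and 14 of 18 alternative fits kept the call. The fits that lost it are given with the result above.

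Among the other cardiac and muscle genes, the effect on Myh7b at 24 h was below that at 12 h by a difference of -2.41 ± 0.58 (adjusted p = 0.027). Of 18 alternative fits 12 kept the call, and the adjusted p reached 0.436 (without untreated replicate 2 of 24 h). For Mef2c the same difference was -0.42 ± 0.11 (adjusted p = 0.047), a call that 9 of 18 alternative fits kept, with an adjusted p of up to 0.508 (without Dox replicate 1 of 12 h). For Tnnt1 it was -2.89 ± 0.74 (adjusted p = 0.046), a call that 5 of 16 alternative fits kept, with an adjusted p of up to 0.238 (without untreated replicate 2 of 12 h).

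The Dox effect on Sox7 itself was larger at 12 h than at 6 h by 0.574 ± 0.09 (adjusted p = 0.0012) and larger at 24 h than at 6 h by 0.671 ± 0.091 (adjusted p = 2e-05). With limma-trend the first of these was 0.63 (adjusted p = 0.164), and all other alternative fits kept both calls.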

How the results depend on the processing

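Over the single comparisons of the 10 genes, 820 alternative values kept their direction and their side of the threshold, 28 lost a call, 5 gained one and 20 changed sign, none of these last a called value. The fit with summed Myh6 and Myh7 counts is among the alternatives. It could hardly change the values of the other genes, and its summed value is counted under Myh7. Myh6, Myh7 and Gata4 at 24 h and the change of the Myh7 effect between 6 and 24 h kept their calls in every alternative fit. None of these fits tests Myh6 apart from reads that it may share with Myh7. With limma-trend, 1 of the 10 genes was called at 12 h, and 1 for the change of the effect between 6 and 24 h. With single libraries left out, those counts were 1 to 2 and 1 to 2. The cause was not tested. The counts at 24 h and in both time courses stayed within 1.5 times of the reported ones.

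The replicate numbers in the labels were checked for pairing. For each tested gene the group mean was subtracted from the log2 CPM of each library. Over these genes, the remainders of same-numbered Dox and untreated libraries had correlations of -0.0335, 0.0518 and -0.0066 at 6, 12 and 24 h. At each hour the same-numbered Dox and untreated libraries were of opposite depth, deep against shallow. A shared origin and a depth effect could therefore offset each other in these values. The check cannot decide whether same-numbered libraries were paired. With the replicate block, 0, 2 and 6 genes were called at 6, 12 and 24 h, 2 for the change between 6 and 24 h, 6 in the Dox course and 4 in the untreated course. The block changed no call of the 10 genes, and Tnni2 of the skeletal muscle list was no longer called at 24 h (-2.18, adjusted p = 0.0547).

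The values that changed sign were uncalled. With single libraries left out, the differences at 6 h ran over -0.01268 to 0.3523 for Myh7, -0.3465 to 0.001661 for Tnnt2, -0.03132 to 0.104 for Gata4 and -0.2547 to 0.08569 for Isl1. At 12 h they ran over -0.2172 to 0.01525 for Tnnt2, -0.4936 to 0.1156 for Tnni1 and -0.1321 to 0.1335 for Nkx2-5, and limma-trend gave 0.0005083 for Nkx2-5. At 24 h they ran over -0.1435 to 0.3854 for Isl1. For the change of the effect between 6 and 24 h they ran over -0.112 to 0.00513 for Gata6, -0.113 to 0.0358 for Hand1 and -0.07397 to 0.4526 for Isl1. In the Dox course Isl1 ran over -0.283 to 0.01218. In the untreated course Myh6 ran over -1.335 to 0.05426 and Myh7 over -0.06564 to 0.2753, with -0.09172 for the summed myosin counts.

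Depth limits Myh6 and Isl1 most, with 5 to 71 and 11 to 51 counts per library. With 2 libraries a group, each call rests on few values.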
